A study of Mus musculus with 6 samples.

Results

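Secreted Wnt antagonists were examined in the tissue from which the mouse lens arises, with and without the transcription factor Pax6. The genes are Sfrp1, Sfrp2, Sfrp5, Frzb, Dkk1, Dkk2, Dkk3, Wif1, Kremen1 and Notum, 10 in all, and every probe whose platform symbol names one of them was taken, 16 of the 46632 probes on the array. RNA came from laser-microdissected tissue of 6 embryos at embryonic day 9.5, 1 BeadArray per embryo with tissue of both eyes together. In 3 embryos the genotype is wild type and the tissue is called lens placode, and in 3 it is Pax6-/- and the tissue is called surface ectoderm. All 6 share a mixed background of FVB and 129, and no allele structure, Cre driver or sex is given in the labels. The comparison is between tissue with and without Pax6 at this stage, and the name of the tissue changes together with the genotype.

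Wnt proteins signal by bringing a Frizzled receptor and the co-receptor Lrp5 or Lrp6 together, which stabilises beta-catenin. Antagonists act outside the cell at different steps. Secreted frizzled-related proteins (the Sfrp genes and Frzb) carry a Frizzled-like cysteine-rich domain and bind Wnts, as does Wif1 through its own domain. Dkk1 and Dkk2 bind Lrp5 and Lrp6, and Kremen1 is a membrane receptor for them, not itself secreted. Dkk3 is a divergent family member that is not a typical Lrp ligand, and Notum is an enzyme that removes the lipid Wnts need for receptor binding. Canonical Wnt activity is known to be kept low in lens-forming ectoderm, and Pax6 has been linked to that restraint in the mouse.

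Values are normalized log2 intensities, and a change is knockout minus wild type with its standard error (SE). A probe counted as detected on an array at a detection p under 0.05, and probes detected on at least 3 arrays were tested. Between 38.8% and 41.6% of probes were detected per array, and precision is limited by having 3 arrays per genotype. On the first principal component knockout 1 scored 55.6, away from the other 5 arrays (-25.9 to 2.06). The brightest Pax6 probe read 10.05 ± 0.33 (SD, n = 3) in wild type and 9.31 ± 0.31 (n = 3) in knockout, a change of -0.74 that did not pass (limma adjusted p = 0.428). The other 2 Pax6 probes changed by -0.66 and -0.41, the last with overlapping groups, and neither passed (adjusted p = 0.528 and 0.876). All 3 were detected on all 6 arrays, and the labels do not say whether they lie in the deleted part. Xist and the Y-linked Kdm5d, Eif2s3y and Uty separated the 6 arrays as genotype does, so genotype and sex cannot be told apart in any comparison here. None of the 10 antagonist genes is X- or Y-linked, which does not remove this limit. Foxe3, a defining lens placode factor, was detected on 0 of 6 arrays, whereas the epithelial markers Epcam, Cdh1, Krt8 and Krt18, named to check the tissue, were detected on all 6.

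Of the 10 genes, 7 had a probe that passed the detection filter and were tested. Dkk2 gave raw signals of 35.7 to 44.8 and was detected on 0 of 6 arrays. The 2 Notum probes gave 37.3 to 44.9 and 33.4 to 40.0 and were likewise detected on 0 of 6. Wif1 was detected on 1 array, knockout 3, at a raw signal of 58.5 with a detection p of 0.0487, and gave 31.5 to 49.2 on the others. These 3 genes were not well above background, so no fold is given for them.

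**Figure D1:**
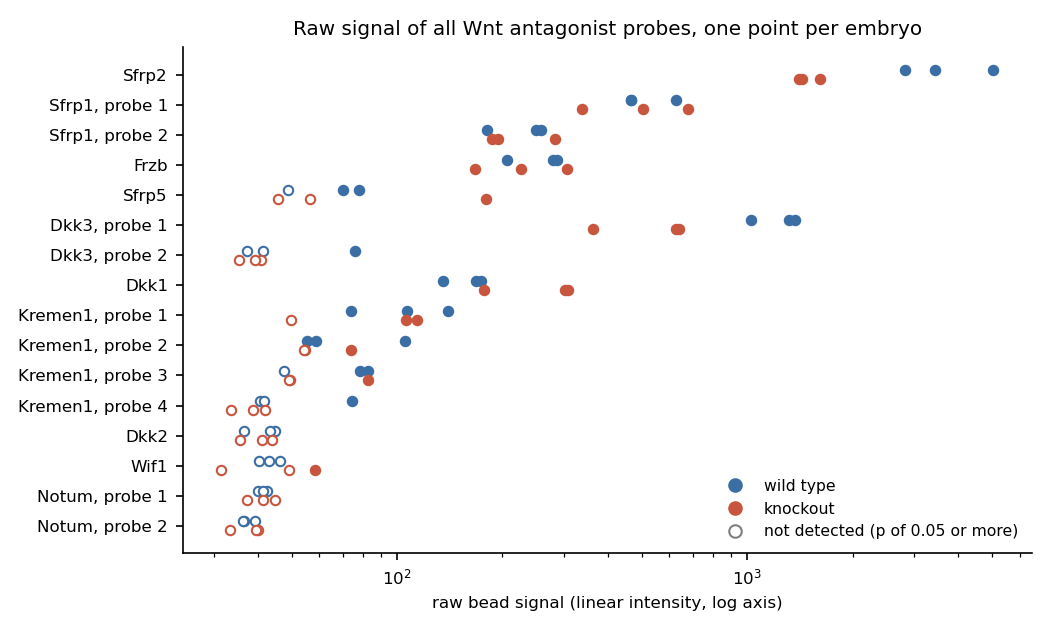
Raw bead signal (linear intensity on a log axis) of all 16 Wnt antagonist probes, 1 point per embryo, blue for wild type and red for knockout, open where the probe was not detected. Both Notum probes and the Dkk2 probe are open on all 6 arrays. Signals of different probes are not comparable as RNA levels.

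Sfrp2 and Dkk3 had about halved signals without Pax6, Dkk1 was close to doubled, and Sfrp1 and Frzb were near their wild type values. None of the 7 genes had an adjusted p (limma, Benjamini-Hochberg) under 0.05 over the 14686 genes and unnamed probes tested (0 of 7, against 0.157% of everything tested, 23 in all). At an unadjusted p under 0.05 there were 3 of 7, Sfrp2, Dkk3 and Dkk1, against 7.44% of everything tested. In the same 3 genes the knockout values did not overlap the wild type values, 3 of 7 against 12.1% of everything tested. Of these, 2 were lower, as were 6.48% of everything tested, and 1 was higher, as were 5.66%. The members were chosen with earlier results of these data known, so these shares are a description and no test of the set. The 7 changes had a median of -0.018, against 0.0022 over everything tested, and a median size of 0.52, against 0.19. That 0.52 is the change of Sfrp5, which was detected on 3 of 6 arrays and had an SE of 0.63. With 4 changes below 0 and 3 above it, the antagonists did not share a direction.

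**Figure D2:**
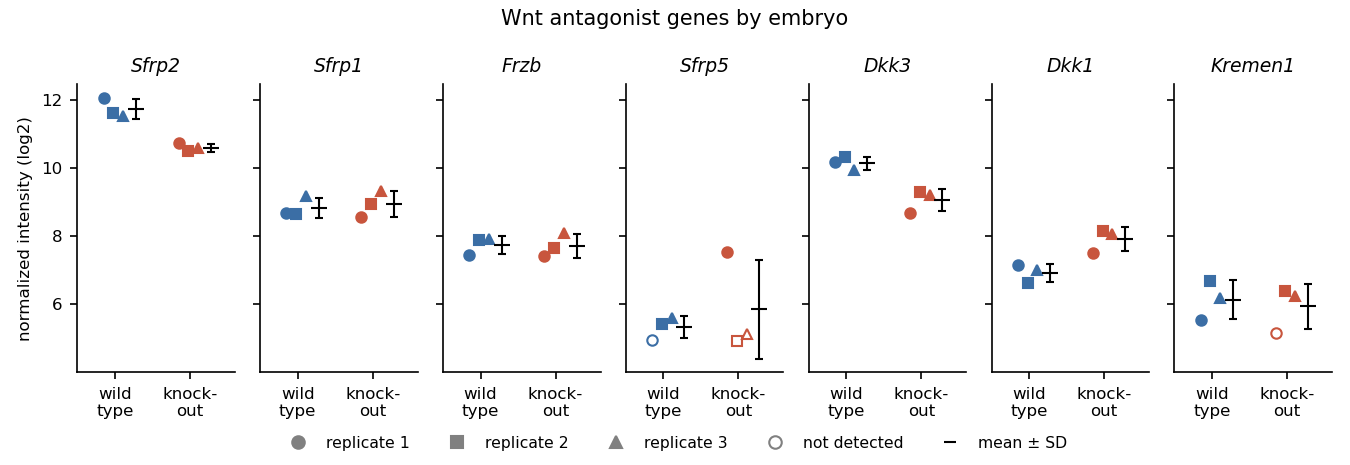
Normalized log2 intensity of the 7 tested genes in each embryo, by genotype, with the mean and SD (n = 3) beside the points and open symbols where the probe was not detected. In Sfrp2 and Dkk3 all 3 knockout points lie below the wild type points, in Dkk1 all 3 lie above them, and in the other 4 genes the genotypes overlap.

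Sfrp2, a Wnt-binding antagonist known from the optic vesicle and lens placode, read 12.06, 11.61 and 11.51 in wild type 1 to 3 and 10.72, 10.49 and 10.58 in knockout 1 to 3. The groups did not overlap, and the knockout embryos lay closer together than the wild type embryos. The means were 11.73 ± 0.29 (n = 3) and 10.60 ± 0.12 (n = 3), a signal 2.19-fold lower in knockout (log2 change -1.13, SE 0.16, 95% interval -1.50 to -0.77). Its adjusted p of 0.0508 by limma was the 24th smallest of 14686, directly after the 23 that passed. The raw signals were 5050, 3447 and 2829 in wild type and 1435, 1407 and 1619 in knockout. Each was an average of 35 to 47 beads with a bead standard error of 3.65% to 5.17% of the signal. The gap between genotypes was larger than bead error. On the log2 scale the change was also larger in size than the SD of either genotype. In raw signal the wild type embryos were spread more widely than the gap between the nearest embryos of the 2 genotypes.

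The position of Sfrp2 relative to the threshold depended on the processing while its change stayed between -1.34 and -1.12 over 12 other settings. It passed with the authors' deposited value table (limma adjusted p = 0.0397), with no background correction (0.0465), with array weights (0.0257) and with a stricter filter on dim probes (0.00921, over 8640 genes and unnamed probes). It did not pass without any 1 of the 6 arrays (adjusted p 0.0915 to 0.207, change -1.24 to -0.97), and over all alternatives its adjusted p ranged from 0.00921 to 0.207. In bulk tissue, fewer expressing cells and less RNA per cell cannot be told apart.

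Sfrp1, the close relative of Sfrp2, did not follow it. Its brighter probe read 8.67, 8.66 and 9.16 in wild type and 8.56, 8.94 and 9.33 in knockout. The values interleaved, and the change was 0.11 (SE 0.23, limma adjusted p = 0.976) with a 95% interval of -0.42 to 0.65, which does not reach the change of Sfrp2. The second Sfrp1 probe read 7.75, 7.73 and 7.12 in wild type and 7.60, 8.01 and 7.35 in knockout, a change of 0.12 (SE 0.28). Both probes gave nearly the same change although they ordered the embryos differently: wild type 3 was highest of the wild type arrays by one and lowest by the other. The first probe's change was -0.095 with median scaling, a setting that moved the median change of everything tested to -0.15.

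Frzb, another member of the frizzled-related family, read 7.44, 7.87 and 7.90 in wild type and 7.41, 7.65 and 8.10 in knockout. The means of 7.74 ± 0.26 (n = 3) and 7.72 ± 0.35 (n = 3) were nearly equal (change -0.018, SE 0.26, 95% interval -0.61 to 0.57, limma adjusted p = 0.994). The interval again does not reach the change of Sfrp2.

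Sfrp5 was close to the detection limit. It read 4.96, 5.43 and 5.59 in wild type and 7.53, 4.91 and 5.11 in knockout, and was detected in wild type 2 and 3 and in knockout 1. Knockout 1 alone was high, with a raw signal of 179 against 45.8 to 78.0 on the other arrays. The change of 0.52 (SE 0.63, limma adjusted p = 0.941) turned to -0.32 without knockout 1.

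The Dkk genes differed from each other in direction. Dkk3 read 10.16, 10.31 and 9.94 in wild type and 8.68, 9.29 and 9.20 in knockout. The knockout embryos were all below the wild type embryos, and knockout 1 was the lowest. The means were 10.13 ± 0.19 (n = 3) and 9.06 ± 0.33 (n = 3), 2.11-fold lower in knockout (log2 change -1.08, SE 0.19, 95% interval -1.51 to -0.64), with a limma adjusted p of 0.121. Without knockout 1 the change was -0.89. Of 18 alternatives Dkk3 passed in 1, the stricter filter (adjusted p = 0.0332), and its adjusted p ranged up to 0.390. A second Dkk3 probe was detected only in wild type 1, at 5.58 against 4.82 to 4.86 on the other arrays, and gave no usable comparison.

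Dkk1, an Lrp-binding antagonist needed for head formation in the mouse and itself a known target of canonical Wnt signalling, read 7.15, 6.63 and 6.99 in wild type and 7.51, 8.16 and 8.07 in knockout. All 3 knockout values lay above the wild type values, with knockout 1 the closest to them. The means were 6.92 ± 0.27 (n = 3) and 7.91 ± 0.35 (n = 3), 1.98-fold higher in knockout (log2 change 0.99, SE 0.28, 95% interval 0.35 to 1.62), and the limma adjusted p was 0.408. In raw signal knockout 1, at 177, was barely above wild type 1, at 174. The change stayed between 0.79 and 1.19 over the 18 alternatives, several of which cannot alter it, with limma adjusted p-values of 0.201 to 0.828.

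**Figure D3:**
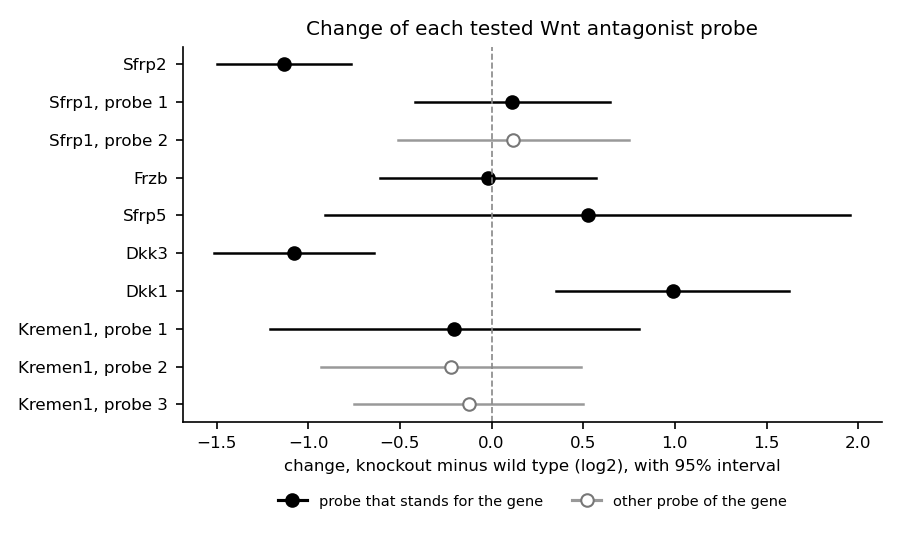
Change in log2 intensity (knockout minus wild type) of the 10 tested antagonist probes with 95% intervals from limma, filled for the probe that stands for its gene and open for other probes of that gene. The intervals of Sfrp2 and Dkk3 lie below 0 and that of Dkk1 above 0, and those of the other 7 probes include 0.

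The promoters of Dkk1 and Sfrp2 are shown because these genes differed in opposite directions and because Dkk1 responds to Wnt. RefSeq sequences (GRCm38.p6) were at hand for 6 of the 10 genes, and the 250 bases before the gene start are given 5′ to 3′ on the gene's strand. Capitals mark the core of the binding motif of TCF and LEF, the DNA-binding partners of beta-catenin, searched as CTTTGA and CTTTGT on both strands. The Dkk1 sequence is chr19:30549497-30549746 on the minus strand and the Sfrp2 sequence is chr3:83766071-83766320 on the plus strand.
Dkk1: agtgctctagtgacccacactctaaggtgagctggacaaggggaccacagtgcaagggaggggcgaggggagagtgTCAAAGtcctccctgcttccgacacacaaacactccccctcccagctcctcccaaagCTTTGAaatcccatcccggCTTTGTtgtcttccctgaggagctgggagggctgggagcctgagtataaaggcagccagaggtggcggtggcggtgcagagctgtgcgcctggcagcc
Sfrp2: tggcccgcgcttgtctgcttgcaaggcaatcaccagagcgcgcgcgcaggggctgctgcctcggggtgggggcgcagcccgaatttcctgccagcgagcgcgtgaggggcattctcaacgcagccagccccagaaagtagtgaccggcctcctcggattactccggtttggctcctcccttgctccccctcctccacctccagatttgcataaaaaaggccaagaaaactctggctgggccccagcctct
The Dkk1 window held 3 matches, beginning 174, 117 and 98 bases before the start, and they did not overlap. The Sfrp2 window held 0. Frzb and Dkk2 had 1 match each and Sfrp5 and Wif1 had 0. Among 32851 promoters of the same length, 27.6% held at least 1 match and 0.776% at least 3. The longer form CTTTGAT was in 0 of the 6 windows, against 3.21% of all promoters. The longer form CTTTGTT was in 1, that of Dkk1, against 5.03%. A palindromic paired homeodomain site was in 0 of the 6 windows and in 0.384% of all promoters. These motifs were picked out of 8 after the windows had been searched, and a match is a description of the letters only.

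Side by side, the Sfrp and Dkk families each held a gene with a lower signal (Sfrp2 and Dkk3). Sfrp1 and Frzb did not share the change of Sfrp2, and Dkk1 did not share that of Dkk3. Sfrp5 had an interval too wide to tell (-0.91 to 1.96), and Dkk2 was not tested. Within each array the Dkk1 minus Dkk3 difference was -3.01, -3.68 and -2.95 in wild type and -1.17, -1.14 and -1.13 in knockout. The 3 knockout embryos were nearly identical in this difference (SD 0.023, against 0.41 in wild type), and the balance of the pair of signals moved by 2.06 on the log2 scale. The Sfrp1 minus Sfrp2 difference was -3.39, -2.95 and -2.35 in wild type and -2.16, -1.55 and -1.24 in knockout, a shift of 1.24. These pairs were chosen with the changes known, so no test is given. The levels themselves depend on each probe and are not compared.

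Kremen1, the membrane receptor that removes Lrp6 together with Dkk1, was dim by all 4 of its probes. The brightest read 5.53, 6.69 and 6.19 in wild type and 5.16, 6.40 and 6.24 in knockout, and was not detected in knockout 1. The genotypes overlapped (change -0.20, SE 0.44, 95% interval -1.21 to 0.80, limma adjusted p = 0.977). The other 2 tested probes changed by -0.22 (SE 0.31) and -0.12 (SE 0.28). The fourth was detected in 1 embryo, wild type 1. Wild type 1 was the highest wild type array by the second probe, at 6.25, and the lowest by the first.

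The other genes of the pathway gave few differences of that size. Of the 39 genes tested in the 4 pathway lists, 0 passed by limma over all genes, where 0.157% of everything tested did. At an unadjusted p under 0.05 there were 5 (Wnt5a, Wnt7a, Lgr4, Lgr5 and Rnf43), all below 0, which is 12.8% of the 39 against 7.44% of everything tested. The lists, too, were chosen with earlier results of these data known. Of 7 other Wnt inhibitors tested, 5 were below 0 (median -0.20). Rnf43, a ubiquitin ligase that removes Frizzled from the surface, changed by -0.87 (SE 0.36, limma adjusted p = 0.638), and Sostdc1, an inhibitor of Wnt and BMP signalling, by -0.20 (SE 0.17). Of 9 Wnt ligands tested, 6 were above 0 (median 0.11). Wnt5a, mostly a ligand of beta-catenin-independent signalling, read 8.50 ± 0.50 (n = 3) in wild type and 7.18 ± 0.51 (n = 3) in knockout (change -1.32, SE 0.34, limma adjusted p = 0.367). Wnt7a changed by -0.56 (SE 0.16) and was detected on 1 of 3 knockout arrays.

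Among 17 receptors and R-spondin pathway genes tested, 9 were above 0 and 8 below (median 0.0097). The R-spondin receptor Lgr4 changed by -0.93 (SE 0.29, limma adjusted p = 0.479). Its relative Lgr5 read 6.12 in wild type and was detected on 0 of 3 knockout arrays, at least 1.95-fold lower at the background offset of 16 and at least 1.51-fold lower at an offset of 50 (limma adjusted p = 0.390 at 16). Ror1, a receptor of Wnt5a, changed by -0.70 (SE 0.34, limma adjusted p = 0.726), with all 3 knockout values below the wild type ones. The Wnt co-receptor Lrp6, which Dkk1 binds, changed by -0.40 (SE 0.21) and Lrp5 by 0.77 (SE 0.62), the latter named after its value was seen. Of 9 canonical Wnt response genes tested, which include Lgr5 and Rnf43 again, 6 were below 0 (median -0.25). Axin2, a feedback inhibitor that reports beta-catenin activity, read 7.52 ± 0.45 (n = 3) and 6.98 ± 0.50 (n = 3), a change of -0.54 (SE 0.35, limma adjusted p = 0.845), and the genotypes overlapped. Ccnd1 changed by -0.20 (SE 0.12).

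**Figure D4:**
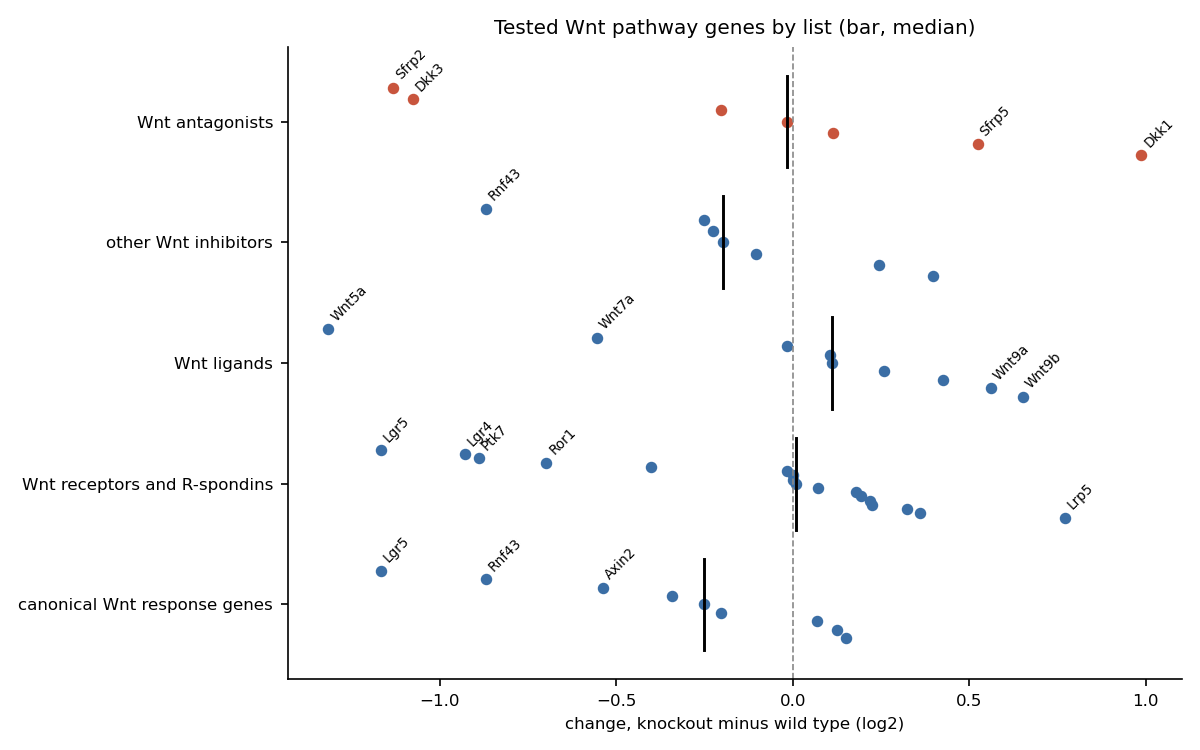
Change in log2 intensity (knockout minus wild type) of every tested gene in the antagonist set (red) and in 4 other Wnt pathway lists (blue), 1 point per gene, with a bar at each list's median and names where the change was over 0.5 in size. Sfrp2 and Dkk3 sit at -1.13 and -1.08, Dkk1 at 0.99, and the medians of the lists lie between -0.25 and 0.11.

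Markers of the tissues next to the placode were read beside these results. Of 10 tested lens placode and surface ectoderm markers, 8 were below 0, and their summed normalized intensity was 6016 to 7470 in wild type and 4022 to 4306 in knockout, the direction of Sfrp2 and Dkk3. Within that list Maf (change -3.86, limma adjusted p = 0.00477) and Prox1 (-2.22, adjusted p = 0.0337), transcription factors of the early lens, fell. The epithelial markers differed among themselves. Krt18 (0.15) and Krt8 (0.14) were above 0, and Cdh1 (-0.18) overlapped between the genotypes. Tfap2a (-0.59) and Epcam (-0.38) were lower without overlap, and neither passed. Of 9 tested optic vesicle and neuroepithelium markers, 8 were above 0 (median 0.57), against 50.4% of everything tested. Of the 9, 0 passed (smallest limma adjusted p = 0.495) and 3 were higher without overlap. Their sum was 675 to 879 in wild type and 998 to 1454 in knockout, against the direction of Sfrp2 and Dkk3 and with that of Dkk1. Knockout 2 and 3 were the highest arrays both in that sum and in Dkk1. They were also the highest in the sums of red cell markers (2185 and 3428) and endothelial markers (318 and 293). In the head mesenchyme and neural crest sum knockout 1 was the highest (2732). Hes5 and Sox1 of the optic vesicle and neuroepithelium list were detected on no array.

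Of 8 tested head mesenchyme and neural crest markers, 6 were above 0, with sums of 1549 to 2179 in wild type and 1911 to 2732 in knockout. Col1a1, Foxc1, Sox10, Lum and Dcn were detected on no array. Red cell markers summed to 384 to 1412 in wild type and 866 to 3428 in knockout, with 4 of 5 above 0 and Klf1 and Gata1 detected on no array. Endothelial markers summed to 220 to 289 and 255 to 318, with 3 of 3 above 0 and Cdh5, Tek and Tie1 detected on no array. Of the mesenchyme, red cell and endothelial markers 0 passed (smallest limma adjusted p = 0.171, 0.585 and 0.954). The part of these tissues in the antagonist differences was not tested.

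The genes whose pattern over the 6 arrays was most like that of Sfrp2 were the collagen gene Col13a1 (Pearson r = 0.991), Arf6 (0.984), Islr2 (0.983), Atf1 (0.983) and Ghitm (0.982). Col13a1 changed by -1.93 and Islr2 by -1.82, and neither passed (limma adjusted p = 0.103 and 0.128). For Dkk3 they were Kank2 (r = 0.988), Snx8 (0.988), Fh1 (0.986), Ephx2 (0.982) and Mab21l1, a gene needed for lens formation (0.980). Of these 5, Ephx2, the soluble epoxide hydrolase, fell past the threshold (-2.61, limma adjusted p = 0.0410). The correlations run over 6 arrays that share the split by genotype, and they are given as a description.

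**Figure D5:**
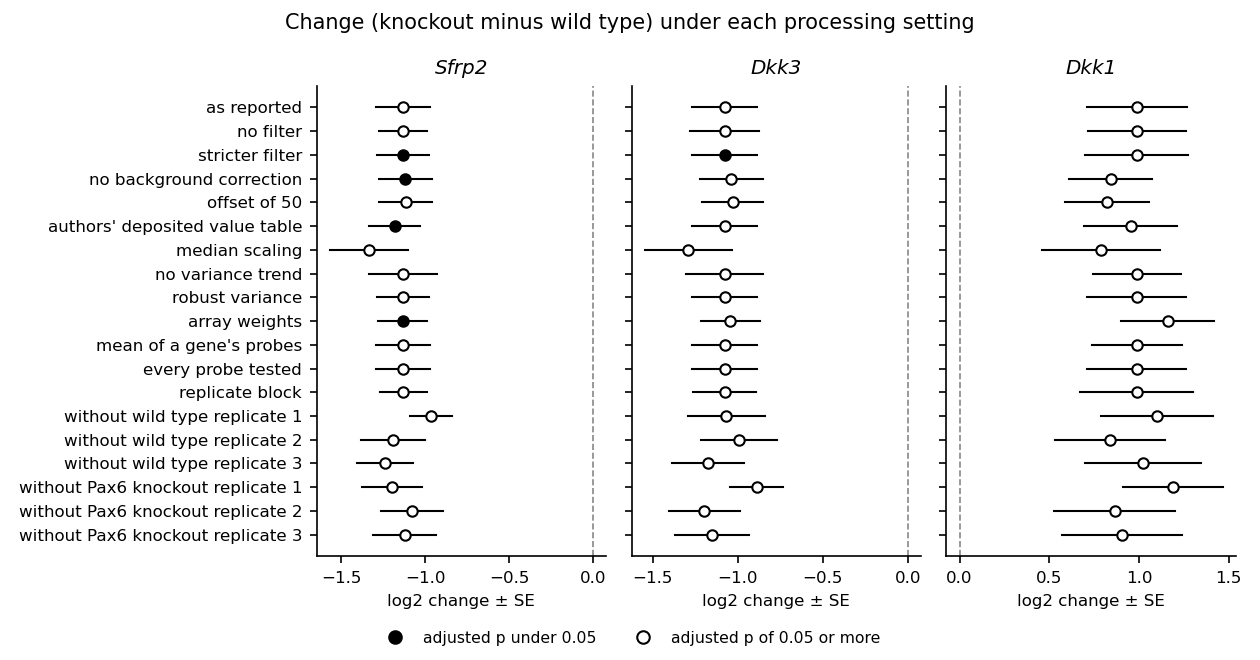
Change in log2 intensity (knockout minus wild type) ± SE of Sfrp2, Dkk3 and Dkk1 as reported and under each of 18 alternative settings, filled where the adjusted p was under 0.05. No change crosses 0, though several settings cannot alter the estimate and leaving out 1 array cannot reverse groups that do not overlap. Sfrp2 is filled under 4 alternatives, Dkk3 under 1 and Dkk1 under 0.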

How the data were processed

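The deposited signal table holds linear intensity, mean bead brightness per probe, with GenomeStudio as the tool named by the submitters' processing notes, and comes with a detection p-value and a bead count per probe. The authors' second deposited table holds background-subtracted intensity brought to a common level by a method not given in the sources used here. It served as an alternative, as log2 of the value floored at 0 plus 16. Signals were background-corrected (normexp from detection p-values, offset 16), quantile normalized and brought to log2 with neqc in limma 3.58.1 (R 4.3.3). Probes detected on at least 3 arrays (19381) were kept. The probe with the highest mean stood for a gene, giving 9618 genes and 5068 unnamed probes. The genotype effect was tested by lmFit and eBayes (variance trend on) with Benjamini-Hochberg adjustment over all 14686. Other probes of a gene come from the same fit with every kept probe tested. The fit was tested on simulated data.

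Symbols came from GEO's platform annotation, updated through Entrez identifiers to RefSeq (29921 of 29976 named probes matched). The members and lists were chosen with earlier results of these data known. The rule for named genes took all members, Pax6, sex-linked checks, up to 4 genes with the smallest p per list and the 5 genes most correlated with Sfrp2 and with Dkk3, described as far as they bear on the members. Foxe3, Epcam, Cdh1, Krt8 and Krt18 were named outside this rule, to check the tissue labels, as was Lrp5. A gene undetected in a genotype has a bound, the bright mean over the mean of, per array, the higher of its own value and the lowest detected value. The labels do not say that replicate numbers pair the samples, so no pairing was used. Deviations from the group means correlated at -0.048, -0.024 and -0.036 for same-numbered arrays. Different-numbered arrays gave -0.055 to 0.088. With 3 arrays per genotype these values cannot show whether a litter or day was shared.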

Additional observations from a re-analysis of the deposited data

How the results depend on the processing

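Sfrp2, Dkk3 and Dkk1 kept their direction under all 18 alternatives, which covered filters, background, scaling, variance model, probe choice, the replicate block and leaving out each array. The count of antagonist genes past the threshold, 0 as reported, was 2 with the stricter filter (a detection p below 0.01 in every embryo of at least 1 genotype), and 1 each with no background correction, the authors' deposited value table and array weights. The count over everything tested, 23 (8 higher, 15 lower), was 6 with no filter, 69 with the stricter filter, 1 with the replicate block and 1 to 6 without 1 array, and 4 higher and 15 lower with median scaling. In the replicate block, which the labels do not support, Sfrp2 had an adjusted p of 0.207. Sfrp1 turned to -0.095 with median scaling. Without 1 array, Sfrp1 ranged from -0.082 to 0.30, Sfrp5 from -0.32 to 0.99, Frzb from -0.21 to 0.14 and Kremen1 from -0.51 to 0.18. The stricter filter tests fewer genes (8640), and Sfrp5 and Kremen1 were not among them. The causes of the other shifts were not tested. Normalization was not repeated when an array was left out. Signal near background limits Sfrp5 and Kremen1 and leaves Dkk2, Wif1 and Notum without a comparison.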

Other observations

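The second Dkk3 probe and the fourth Kremen1 probe were each detected on 1 array, and it was the same one, wild type 1, at 5.58 and 5.54. On the other 5 arrays they read 4.82 to 4.86 and 4.81 to 4.87. The second Kremen1 probe was also highest in wild type 1, at 6.25 against 5.07 to 5.52 elsewhere, whereas the brightest Kremen1 probe read 5.53 there, below the other 2 wild type arrays.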
